A study of Mus musculus with 4 samples.

Results

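Messenger RNA of 10 genes for ATF, CREB and other stress-responsive basic leucine zipper (bZIP) transcription factors was followed in dendritic cells (DC) of the mouse spleen. The genes were Atf1, Atf2, Creb1, Crem, Creb3, Atf6, Xbp1, Atf4, Ddit3 and Nfe2l2. All probe sets that the platform annotation gives to 1 of these symbols were taken. That found 25 of 22626 probe sets, for 9 of the 10 genes. For Atf1 the array holds 1 probe set that is assigned to Atf1 and to Atf1-ps together, and it is described apart. The genes were chosen with earlier results of the same arrays known, among them a large difference on a probe set of Atf2. All differences between the groups for these genes are therefore descriptions and were given no test of their own.

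The study asked which transcripts of DC differ after exposure to TCDD, a dioxin that binds the aryl hydrocarbon receptor (AhR). In each group 3 female C57BL/6 mice aged 8 to 12 weeks received an intraperitoneal injection, either of 10 µg/kg TCDD or of the solvent DMSO, each in corn oil. After 24 h the spleens were pooled, and a density gradient followed by magnetic sorting gave DC of more than 90% purity. RNA was amplified and hybridised to 4 Affymetrix arrays, 2 for DMSO and 2 for TCDD, numbered as biological replicates in the labels. The sources used here do not say whether the arrays of a group came from separate mice. The p-values below thus measure only the spread between these arrays. The deposited table gives log2 RMA values rounded to 0.1.

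Proteins of the bZIP class bind DNA as dimers through a basic region and a leucine zipper. CREB, CREM and ATF1 are phosphorylated after cyclic AMP and other signals, and ATF2 is a substrate of the stress kinases p38 and JNK. Several routes of the unfolded protein response of the endoplasmic reticulum (ER) end in bZIP factors. ATF6 is cut and moves to the nucleus, Xbp1 mRNA is spliced by the sensor IRE1, and the kinase PERK raises translation of Atf4 mRNA, whose product induces Ddit3 (CHOP). NRF2, the product of Nfe2l2, is held down by KEAP1 and drives antioxidant genes. In DC, XBP1 is known for its part in survival and in antigen presentation. Much of this control acts on the proteins or on splicing, and the arrays measured mRNA alone.

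The promoters of 3 members are shown because their probe sets stood out below. Atf2 had the most probe sets lower in TCDD, Atf4 had the probe set that was higher, and Xbp1 was the other gene with more than 1 lower probe set. Each line holds the 250 bases before the RefSeq start of the gene (GRCm38.p6), 5′ to 3′ on the strand of the gene. Capitals mark the AhR core motif GCGTG or its reverse complement. The Atf2 window lies at chr2:73892640-73892889 on the minus strand, the Atf4 window at chr15:80254934-80255183 and the Xbp1 window at chr11:5520391-5520640, both on the plus strand.
Atf2: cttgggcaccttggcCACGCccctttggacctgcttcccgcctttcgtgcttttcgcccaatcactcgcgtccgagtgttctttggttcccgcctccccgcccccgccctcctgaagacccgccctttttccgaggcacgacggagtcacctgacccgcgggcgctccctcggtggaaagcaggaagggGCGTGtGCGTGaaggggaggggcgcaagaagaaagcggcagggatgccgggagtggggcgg
Atf4: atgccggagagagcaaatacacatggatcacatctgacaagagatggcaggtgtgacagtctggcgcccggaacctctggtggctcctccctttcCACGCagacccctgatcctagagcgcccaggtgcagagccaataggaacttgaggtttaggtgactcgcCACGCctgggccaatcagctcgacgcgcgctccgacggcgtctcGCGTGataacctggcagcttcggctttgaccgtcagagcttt
Xbp1: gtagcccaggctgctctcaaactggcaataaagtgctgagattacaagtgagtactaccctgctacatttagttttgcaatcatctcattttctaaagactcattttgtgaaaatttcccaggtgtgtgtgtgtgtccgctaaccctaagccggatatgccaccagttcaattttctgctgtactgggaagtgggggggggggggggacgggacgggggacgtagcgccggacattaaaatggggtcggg

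The Atf2 window held the AhR core 3 times, with first bases 235, 61 and 55 bases before the start. The Atf4 window held it 3 times as well, at 155, 86 and 42 bases, and the Xbp1 window did not hold it. Of the 8 members with a promoter entry 5 held this core on either strand, against 28.2% of 32851 promoter windows of the same length. The full cyclic AMP response element TGACGTCA stood in 0 of the 8, against 1.55% of all windows. Its core TGACG, which is contained in the full element, stood in 2 of the 8, namely Atf1 and Atf4, against 17.8% of all windows. Windows of members were mostly rich in GC, at 67.2% in Atf2, 59.2% in Atf4 and 50.4% in Xbp1, where the median of all windows was 52.4%. The matches describe letters only. Binding of AhR or of the factors was not measured.

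On the arrays, Atf2 stood apart from the other members. Of its 4 probe sets 3 were lower in both TCDD arrays than in both DMSO arrays, by 0.50, 0.90 and 2.10 on the log2 scale, while the fourth differed by 0.05. Xbp1 was lower in this way on 2 of 4 probe sets, by 0.50 and 0.80. Atf4 had 1 probe set of 3 that was higher in both TCDD arrays, by 1.30, while its other 2 probe sets overlapped between the groups. Creb1, Crem, Creb3, Atf6, Ddit3 and Nfe2l2 had no probe set on which the groups were separate.

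In all, 5 of the 25 member probe sets were lower in TCDD without overlap of the groups, and 1 was higher. Over all 22626 probe sets 18.4% were lower and 19.0% higher by the same rule; median centring of the arrays moved this split to 24.6% lower and 13.2% higher. The share of lower members was thus near the background. Separate groups that also differed 2-fold or more were seen on 1 member probe set in each direction, against 2.35% of all probe sets on the lower side and 0.398% on the higher side. That split of all probe sets, 531 lower and 90 higher, became 246 and 133 under quantile normalization. The median difference over the 25 probe sets was -0.10, and over all probe sets it was 0.00. These members were chosen with the differences known, so nothing is read from the comparison of shares.

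Across the whole table limma called 0 of 22626 probe sets at an adjusted p under 0.05 (0.00%), and the smallest adjusted p was 0.349. An unadjusted p under 0.05 was reached by 2958 probe sets, or 13.1%. A trended robust prior also called 0. For 2 against 2 arrays the smallest p of an exact permutation test is 0.333. No member probe set was therefore called, and the words lower and higher below say only where the arrays lay.

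**Figure D1:**
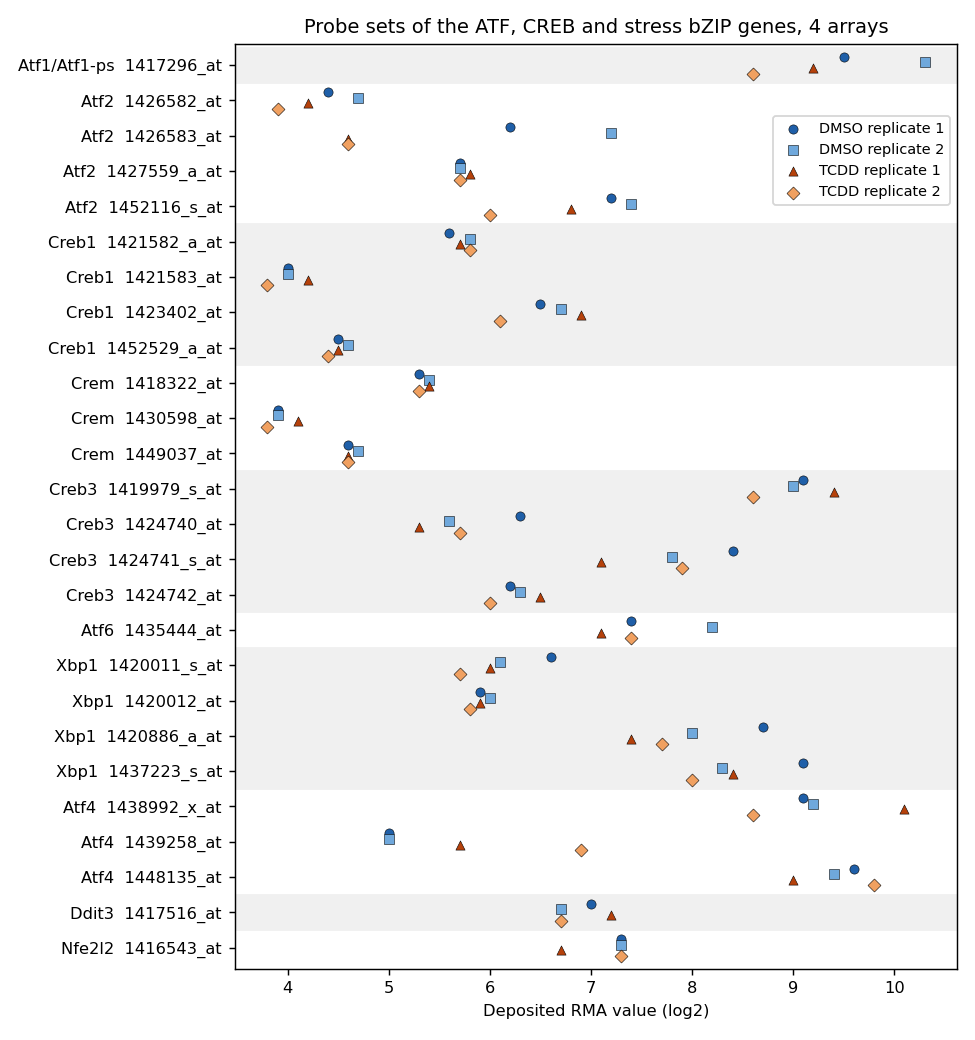
Deposited RMA values (log2, horizontal axis) of the 25 member probe sets and of the probe set shared by Atf1 and Atf1-ps, with 1 point for each of 2 DMSO and 2 TCDD arrays. On Atf2 1426583_at both TCDD arrays lie at 4.6, below the DMSO arrays at 6.2 and 7.2, while on Atf4 1439258_at both TCDD arrays lie above the DMSO value of 5.0.

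Several features of the arrays bear on every value that follows. Median log2 values were 5.9 to 6.0, and across probe sets Pearson's r was 0.982 between the DMSO arrays and 0.953 between the TCDD arrays. Differences moved with brightness: the median difference was -0.40 at DMSO levels from 8.5 to 9.5 and 0.05 at levels from 5.5 to 6.5. The 3′ probe set of the Gapdh control exceeded the 5′ one in every array, by 4.1 to 5.4, and for beta-actin by 3.3 to 4.4. Both gaps were widest in TCDD replicate 1. In TCDD replicate 1 the 3′ probe set of Gapdh exceeded the middle one by 3.6, against 1.5 to 2.1 in the other 3 arrays, and for beta-actin by 4.0 against 1.9 to 2.1. Neutrophil markers (11 measured) had a mean level of 7.31 in that array, compared with 6.24 and 5.93 in the DMSO arrays and 6.06 in the other TCDD array, with S100a8 at 10.3 against 5.6 to 6.4 elsewhere; 3 of the 11 were higher without overlap and 1 lower. The macrophage and monocyte markers (12 measured) had mean levels of 9.21 and 9.07 in the DMSO arrays and 8.53 and 8.52 in the TCDD arrays, and 6 of the 12 were lower without overlap; at DMSO levels from 8.5 to 9.5, 42.2% of all probe sets were lower in this way. Their part in the differences of the members was not tested. Values without TCDD replicate 1 are given in places, but they cannot separate its control gaps from its neutrophil markers. The lower macrophage levels were seen in both TCDD arrays. So was the trend with brightness, with medians of -0.25 in replicate 1 and -0.55 in replicate 2 at DMSO levels from 8.5 to 9.5. Leaving out TCDD replicate 1 therefore does not test either of them.

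Markers of DC were well measured. Of 11 measured DC markers 10 lay above the dim threshold of 5.525, the 40th percentile of all probe sets; Itgax lay at 9.1 to 10.1 and Flt3 at 8.8 to 9.6 over the 4 arrays. Xcr1, at 5.2 to 5.5, was the DC marker below it. Mean levels of the DC markers were 10.33 and 10.12 in the DMSO arrays and 9.48 and 9.88 in the TCDD arrays. Of 8 measured T and NK cell markers 3 lay below the threshold. So did 1 of 11 neutrophil, 0 of 12 macrophage and monocyte and 0 of 8 B and plasma cell markers. The threshold thus does not set DC apart from these other cells. Mean levels of the 8 measured B and plasma cell markers were 7.39 and 7.18 in the DMSO arrays and 7.4 and 6.62 in the TCDD arrays. Ahrr, the AhR repressor gene, lay at 5.5 and 5.2 in the DMSO arrays and 7.2 and 7.8 in the TCDD arrays, whereas Cyp1a1 stayed at 5.3 to 5.4. In bulk RNA, fewer cells of a type and less RNA per cell cannot be told apart.

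Atf2 encodes a factor that p38 and JNK activate and that pairs with JUN. On probe set 1426583_at it lay at 6.2 and 7.2 in the DMSO arrays and 4.6 and 4.6 in the TCDD arrays. Both TCDD arrays were low to the same degree, 2.10 under the DMSO mean each, and the DMSO arrays were 1.0 apart. The difference was -2.10 (moderated SE 0.411, n = 2 per group). Without TCDD replicate 1, the array with the widest Gapdh gaps, it was -2.10 as well. The TCDD values lay below the dim threshold, where a larger change need not show. Among 3710 probe sets with DMSO levels from 6.5 to 7.5 the 5th percentile of the differences was -0.80.

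A second Atf2 probe set, 1452116_s_at, lay at 7.2 and 7.4 in the DMSO arrays and 6.8 and 6.0 in the TCDD arrays. It was low in both TCDD arrays, more so in replicate 2, with a difference of -0.90 (SE 0.341), just outside the 5th percentile for its level. The third, 1426582_at, was dim throughout, at 4.4 and 4.7 in the DMSO arrays and 4.2 and 3.9 in the TCDD arrays. Its difference was -0.50 (SE 0.183), where the 5th percentile for its level was -0.35. The platform annotation gives these 3 probe sets the same source sequence, so they are not independent views of the gene. The fourth, 1427559_a_at, has another source sequence and lay at 5.7 and 5.7 in the DMSO arrays and 5.8 and 5.7 in the TCDD arrays. It sat close to the dim threshold in every array and showed no separation. Probe sets ending in _a_at are meant to match several transcripts of 1 gene, those in _s_at match several sequences, and those in _x_at hold probes that can bind unrelated sequences.

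The 4 differences of Atf2 spanned 2.15 on the log2 scale. Among 447 genes with 4 probe sets each, the median span was 0.60 and 1.12% had a span at least as wide. Both facts come from the contrast that drew attention to Atf2, so they describe how far its probe sets disagree. The positions of the probes along the transcript were not used here, and no probe set could be tied to an isoform.

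**Figure D2:**
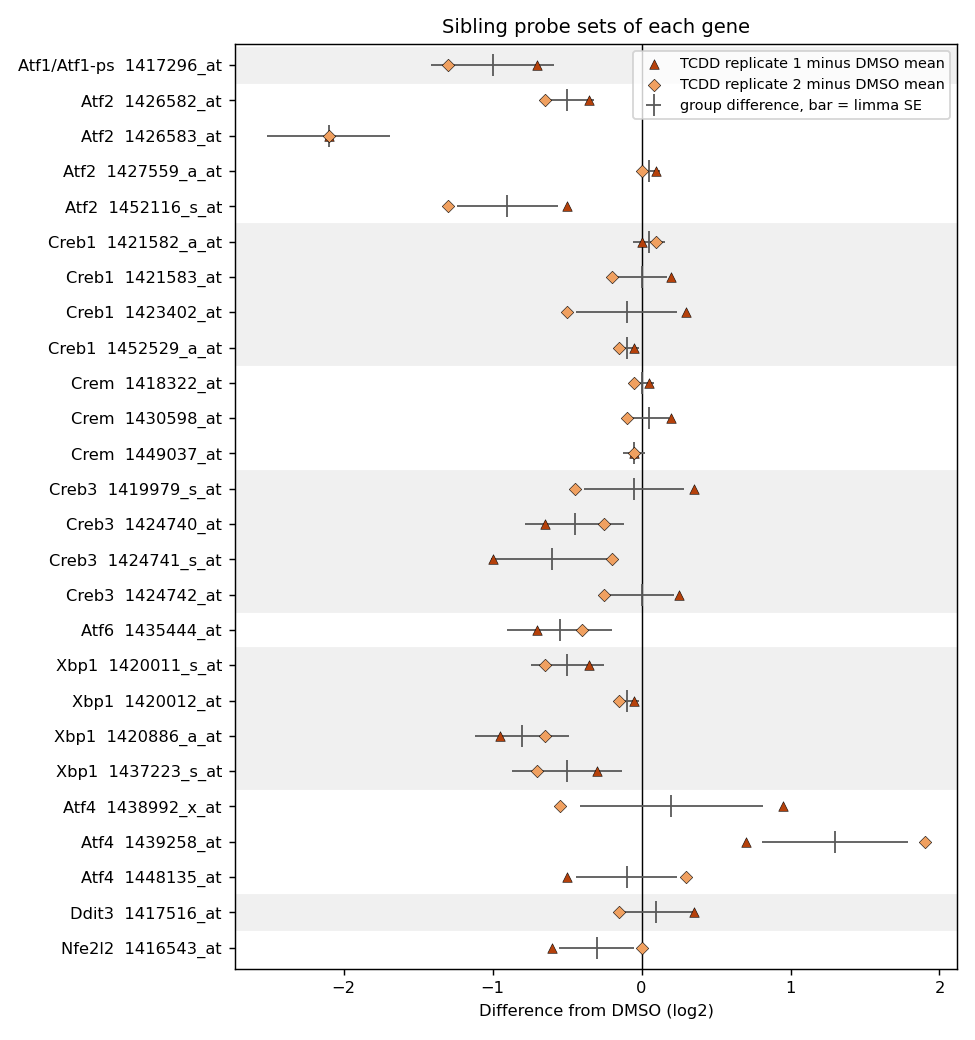
Difference from the DMSO mean (log2, horizontal axis) of each TCDD array, by probe set and grouped by gene; vertical ticks are the group differences and bars their limma SE with 2 arrays per group. Both TCDD arrays stand at -2.10 on Atf2 1426583_at, while on Atf4 1438992_x_at they stand on opposite sides of 0, at 0.95 and -0.55.

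Creb1 encodes CREB itself. Its brightest probe set, 1423402_at, lay at 6.5 and 6.7 in the DMSO arrays and 6.9 and 6.1 in the TCDD arrays, so that the TCDD arrays fell on either side of DMSO (difference -0.10, SE 0.341). On 1421582_a_at it lay at 5.6 and 5.8 in the DMSO arrays and 5.7 and 5.8 in the TCDD arrays. The other 2 probe sets were dim, 1421583_at at 3.8 to 4.2 and 1452529_a_at at 4.4 to 4.6 over all 4 arrays. Its 4 differences ran from -0.10 to 0.05, a span of 0.15, and 98.4% of the genes with 4 probe sets had a span at least as wide. A narrow span on dim probe sets does not show that the mRNA stayed the same.

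Crem, whose products include activators and the repressor ICER, was dim on all 3 probe sets. The values over the 4 arrays were 5.3 to 5.4 on 1418322_at, 4.6 to 4.7 on 1449037_at and 3.8 to 4.1 on 1430598_at. No difference exceeded 0.05 in size. A change of Crem at these levels need not be visible.

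The probe set assigned to Atf1 and Atf1-ps, 1417296_at, lay at 9.5 and 10.3 in the DMSO arrays and 9.2 and 8.6 in the TCDD arrays. Both TCDD arrays lay below both DMSO arrays. Its difference was -1.0 (SE 0.411), or 2.0-fold lower, and it cannot be given to either gene. At DMSO levels from 9.5 to 10.5 the median difference of 676 probe sets was -0.40 and the 10th percentile -1.10, so a difference of this size was common among bright probe sets. It was -1.30 without TCDD replicate 1 and -0.70 without TCDD replicate 2.

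Among the factors tied to the ER membrane, Atf6 had 1 probe set, 1435444_at, at 7.4 and 8.2 in the DMSO arrays and 7.1 and 7.4 in the TCDD arrays. The groups met at 7.4, and the difference was -0.55 (SE 0.353). Without DMSO replicate 1 it was -0.95, and without DMSO replicate 2 it was -0.15. Creb3, which encodes a factor released from the ER and Golgi membrane by cleavage, had 4 probe sets, and the annotation gives 3 of them, those numbered from 1424740_at to 1424742_at, the same source sequence. The brightest, 1419979_s_at, lay at 9.1 and 9.0 in the DMSO arrays and 9.4 and 8.6 in the TCDD arrays, with a difference of -0.05 (SE 0.333), which became 0.26 under cyclic loess and 0.31 under quantile normalization. Probe set 1424741_s_at lay at 8.4 and 7.8 in the DMSO arrays and 7.1 and 7.9 in the TCDD arrays (difference -0.60, SE 0.411), and 1424740_at at 6.3 and 5.6 in the DMSO arrays and 5.3 and 5.7 in the TCDD arrays (difference -0.45, SE 0.333). On both the lowest value was that of TCDD replicate 1 and the highest that of DMSO replicate 1. The last, 1424742_at, lay at 6.2 and 6.3 in the DMSO arrays and 6.5 and 6.0 in the TCDD arrays, a difference of 0.00. Without TCDD replicate 1 the differences of 1424741_s_at and 1424740_at shrank to -0.20 and -0.25, and without DMSO replicate 1 to -0.30 and -0.10. The 4 differences spanned 0.60, the median span of genes with 4 probe sets, and 52.1% of those genes had a span at least as wide.

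Xbp1, the factor of the IRE1 branch, had a mean difference below 0 on each of its 4 probe sets, with separate groups on 2. The annotation gives 1420011_s_at and 1420012_at the same source sequence. Probe set 1420886_a_at lay at 8.7 and 8.0 in the DMSO arrays and 7.4 and 7.7 in the TCDD arrays. Both TCDD arrays were below both DMSO arrays, and the difference was -0.80 (SE 0.316), or 1.74-fold lower. Probe set 1420011_s_at lay at 6.6 and 6.1 in the DMSO arrays and 6.0 and 5.7 in the TCDD arrays, a difference of -0.50 (SE 0.245). On 1437223_s_at the values were 9.1 and 8.3 in the DMSO arrays and 8.4 and 8.0 in the TCDD arrays, so that the groups overlapped at a difference of -0.50 (SE 0.369). The remaining one, 1420012_at, moved between 5.8 and 6.0 only. The span of the 4 differences was 0.70, and 42.1% of genes with 4 probe sets had a span at least as wide.

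For Xbp1 the largest of these differences, -0.80, was set against 2357 probe sets at DMSO levels from 7.5 to 8.5, where the median was -0.30 and the 10th percentile -0.90. Without TCDD replicate 1 it was -0.65, and without DMSO replicate 1 it was -0.45. It was -1.15 without DMSO replicate 2 and -0.52 under quantile normalization. The differences of 1437223_s_at and 1420011_s_at were -0.10 and -0.25 without DMSO replicate 1, and -0.90 and -0.75 without DMSO replicate 2. Under quantile normalization they were -0.16 and -0.51. No probe set was tied here to the spliced or the unspliced form of Xbp1 mRNA.

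**Figure D3:**
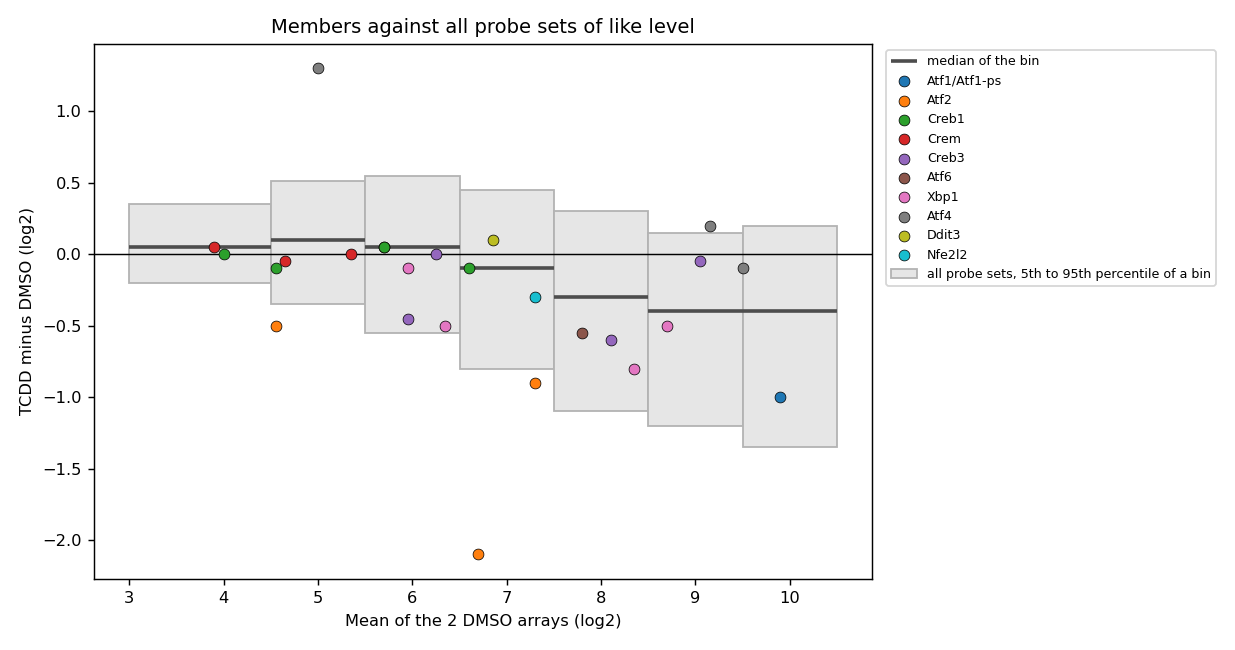
Difference between TCDD and DMSO (log2, vertical axis) against the mean of the 2 DMSO arrays (log2, horizontal axis). Grey boxes span the 5th to 95th percentile of all probe sets in a level bin, and dark lines are the bin medians. Points are member probe sets and the probe set shared by Atf1 and Atf1-ps. Atf2 at -2.10 and Atf4 at 1.30 lie farthest outside the boxes. The Atf2 points at -0.90 and -0.50 and the Atf4 point at 0.20 lie outside by less. The Xbp1, Atf6 and Creb3 points lie inside them.

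Atf4 encodes the effector of the integrated stress response, in which phosphorylated eIF2α lowers general translation and favours Atf4. Probe set 1439258_at lay at 5.0 and 5.0 in the DMSO arrays and 5.7 and 6.9 in the TCDD arrays. Both TCDD arrays were higher, replicate 2 by 1.90 and replicate 1 by 0.70, for a difference of 1.30 (SE 0.491). Both DMSO values lay below the dim threshold, so no fold is given. At DMSO levels from 4.5 to 5.5 the 95th percentile of 5838 probe sets was 0.51. On 1448135_at Atf4 lay at 9.6 and 9.4 in the DMSO arrays and 9.0 and 9.8 in the TCDD arrays (difference -0.10, SE 0.341). On 1438992_x_at it lay at 9.1 and 9.2 in the DMSO arrays and 10.1 and 8.6 in the TCDD arrays (difference 0.20, SE 0.614). The sign on 1448135_at turned with the normalization: it was 0.21 under cyclic loess and 0.28 under quantile normalization, where all 3 Atf4 probe sets were above 0, at 0.51 and 0.54 on 1438992_x_at and 1.23 and 1.30 on 1439258_at.

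The TCDD arrays thus disagreed on the order of these Atf4 probe sets. Replicate 1 was above the DMSO mean by 0.95 on 1438992_x_at and below it by 0.50 on 1448135_at, whereas replicate 2 was below by 0.55 on the former and above by 0.30 on the latter. The span over the 3 probe sets was 1.40, and 3.61% of 1191 genes with 3 probe sets had a span at least as wide, with a median of 0.45. Ddit3, the gene of the ATF4 target CHOP, had 1 probe set, 1417516_at, at 7.0 and 6.7 in the DMSO arrays and 7.2 and 6.7 in the TCDD arrays. The groups overlapped and the difference was 0.10 (SE 0.245).

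Nfe2l2, the gene of NRF2, also had 1 probe set, 1416543_at. It lay at 7.3 in both DMSO arrays, at 6.7 in TCDD replicate 1 and at 7.3 in TCDD replicate 2. The difference of -0.30 (SE 0.252) came from replicate 1 and was 0.00 without it.

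The arrays contributed unequally to the members. Of the 25 probe sets 14 lay below the DMSO mean in TCDD replicate 1 and 20 in TCDD replicate 2, with medians of -0.05 and -0.20; over all probe sets the medians were 0.05 and -0.10. With an array left out its group has 1 value, and separate groups are then met more easily. Without TCDD replicate 1, 14 members were lower and 2 higher without overlap, beside 45.3% and 25.8% of all probe sets. Without TCDD replicate 2 the numbers were 10 and 9, beside 23.7% and 40.8%. Without DMSO replicate 1 they were 9 and 1, beside 28.2% and 30.1%, and without DMSO replicate 2 they were 8 and 2, beside 28.4% and 24.8%.

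Genes that act with the members were taken from 6 lists and read on the brightest probe set of each gene. By that measure 0 of 12393 genes were called by limma, 19.4% were lower without overlap and 20.0% higher. Under median centring these shares were 25.2% and 14.2%, and under quantile normalization 15.0% and 23.9%. The 9 members with a probe set of their own gave 1 lower, Atf2, and 0 higher on this measure, with a median difference of -0.10.

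Among other ATF, CREB, CNC and Maf factors 20 of 22 genes were measured. Limma called 0, 2 were lower and 4 higher without overlap, and the median difference was 0.00. Without TCDD replicate 1 the median was -0.28, with 10 lower and 4 higher, and without TCDD replicate 2 it was 0.10, with 2 and 10. The shares of all genes lower and higher were 46.3% and 26.5% in the first setting and 24.5% and 41.8% in the second. Bach1, a repressor that competes with NRF2, lay at 9.3 and 9.9 in the DMSO arrays and 8.7 and 8.4 in the TCDD arrays. Its difference was -1.05 (SE 0.28), while its other probe set differed by 0.30. At DMSO levels from 9.5 to 10.5 the 10th percentile of all probe sets was -1.10. Mafg, a small Maf partner of NRF2, differed by -0.25 (SE 0.11). Creb3l1, an ER membrane relative of Creb3, lay at 6.4 and 6.3 in the DMSO arrays and 6.7 and 7.1 in the TCDD arrays, a difference of 0.55 (SE 0.179), and Creb3l3 differed by 0.20. Atf3, a stress-induced relative, lay at 7.9 and 9.2 in the DMSO arrays and 8.0 in both TCDD arrays, with a difference of -0.55 (SE 0.532).

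Kinases and coactivators upstream of CREB and ATF2 (18 of 23 measured) gave 0 calls, 5 lower and 3 higher, with a median of -0.15. That median was -0.05 under quantile normalization, -0.06 under cyclic loess, -0.35 with dim probe sets removed and 0.02 without DMSO replicate 1. Rps6ka3, the gene of the CREB kinase RSK2, lay at 8.8 and 9.0 in the DMSO arrays and 8.3 and 7.5 in the TCDD arrays. Its difference was -1.0 (SE 0.341), and its other probe sets differed by -0.45 and 0.15. At DMSO levels from 8.5 to 9.5 the 10th percentile of all probe sets was -0.95 and the 5th -1.2. Mapk8, the gene of JNK1, lay at 7.5 and 7.4 in the DMSO arrays and 6.9 and 6.4 in the TCDD arrays (difference -0.80, SE 0.216); its other probe sets differed by -0.80 and 0.05. Crebbp, the gene of the CREB-binding coactivator CBP, lay at 7.7 and 7.7 in the DMSO arrays and 7.3 and 6.8 in the TCDD arrays (difference -0.65, SE 0.212). Map2k6, which encodes an activator of p38, differed by -0.50 (SE 0.264). In these 4 genes TCDD replicate 2 was the lower of the TCDD arrays. The 3 genes higher without overlap were Mapk11, Prkaca and Crtc3, with differences of 0.40 (SE 0.131), 0.35 (SE 0.179) and 0.25 (SE 0.137).

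Of the CREB target genes 16 of 18 were measured, with 0 calls, 7 lower and 1 higher, and a median of -0.27. The median was -0.16 under quantile normalization, -0.13 without DMSO replicate 1 and -0.50 with dim probe sets removed. Mean levels of this list were 7.96 and 7.89 in the DMSO arrays. At DMSO levels from 7.5 to 8.5 the median difference of all probe sets was -0.30. The share of all probe sets lower without overlap rose with level. It was 22.8% at DMSO levels from 6.5 to 7.5 and 42.2% at levels from 8.5 to 9.5, beside 43.8% of this list. Shares over all genes are therefore not a background matched in level for this list. Egr1, at 12.0 and 12.5 in the DMSO arrays and 11.0 and 11.4 in the TCDD arrays, had a difference of -1.05 (SE 0.267). Fos and Dusp1 differed by -0.85 each and Nr4a1 and Cited2 by -0.75 each, although a second probe set of Cited2 differed by 0.50. Nr4a3, singled out after its values were seen as the higher gene, lay at 7.8 and 7.9 in the DMSO arrays and 8.3 and 8.7 in the TCDD arrays, a difference of 0.65 (SE 0.179). Several of these genes are immediate-early genes that also answer to cell handling and to other factors, and the part of CREB in their values was not measured. In TCDD replicates 1 and 2 the median of the list was -0.23 and -0.25.

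The ER list of stress sensors and of chaperones driven by ATF6 and XBP1 (25 of 26 measured) gave 0 calls, 14 lower and 0 higher, with a median of -0.40. Under quantile normalization 7 were lower and 4 higher, with a median of -0.19, and under cyclic loess 10 and 3. These genes are bright: their mean level was 8.54 in both DMSO arrays, and at DMSO levels from 8.5 to 9.5 the share of all probe sets lower without overlap was 42.2%. Pdia3, a disulfide isomerase gene, lay at 9.8 and 9.7 in the DMSO arrays and 6.0 and 8.9 in the TCDD arrays, a difference of -2.30 (SE 1.18) set mainly by replicate 1. Pdia6 lay at 9.4 and 8.9 in the DMSO arrays and 7.2 and 8.7 in the TCDD arrays (difference -1.20, SE 0.645), and its other probe set differed by 0.20. Eif2ak3, the gene of PERK, lay at 7.9 and 8.6 in the DMSO arrays and 7.1 and 7.2 in the TCDD arrays (difference -1.10, SE 0.294), but its other probe sets differed by 0.05 and 0.65.

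In the same list Hsp90b1 and Canx, both chaperone genes, differed by -0.85 each. The other probe sets of Canx, 1 of them dim, differed by 0.15 each, and the other probe set of Hsp90b1, also dim, by -0.35. Hspa5, the gene of the chaperone BiP, lay at 12.1 and 12.4 in the DMSO arrays and 12.0 and 11.7 in the TCDD arrays, a difference of -0.40 (SE 0.183), and by -1.10 on its other probe set. The list median was -0.45 without TCDD replicate 1 and -0.35 without TCDD replicate 2, beside -0.10 and 0.05 for all genes. Among all probe sets at DMSO levels from 8.5 to 9.5 the medians were -0.55 in TCDD replicate 2 and -0.25 in replicate 1. At levels from 7.5 to 8.5 they were -0.40 and -0.15. All genes are therefore not a background matched in level for this list.

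The integrated stress response list (23 of 24 measured) held genes on both sides, with 0 calls, 4 lower, 6 higher and a median of -0.05. The balance turned with the array left out. It was 12 lower and 7 higher without TCDD replicate 1, with a median of -0.20. Without TCDD replicate 2 it was 4 and 11, with a median of 0.05. Of all genes, 46.3% were lower and 26.5% higher without TCDD replicate 1, and 24.5% and 41.8% without TCDD replicate 2. All genes thus turned in the same way as the list. Under quantile normalization 1 was lower and 6 were higher. Aars, an alanyl-tRNA synthetase gene, lay at 7.1 and 7.0 in the DMSO arrays and 7.7 and 7.7 in the TCDD arrays (difference 0.65, SE 0.0744), while its other probe set differed by -0.50. Phgdh, the first enzyme of serine synthesis, differed by 0.65 (SE 0.212). Its other probe sets differed by 0.20, 0.60 and 0.00, and all probe sets of this gene end in _x_at. The eIF2α phosphatase subunits Ppp1r15a and Ppp1r15b differed by -0.75 (SE 0.323) and -0.55 (SE 0.302), while a dim second probe set of Ppp1r15b was higher without overlap, by 0.35. Trib3, a target of ATF4 and CHOP, lay at 5.5 and 5.6 in the DMSO arrays and 5.7 and 6.0 in the TCDD arrays, a difference of 0.30 (SE 0.143).

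The NRF2 list (18 of 21 measured) gave 0 calls, 9 lower and 0 higher, with a median of -0.30. Under quantile normalization 6 were lower and 2 higher, with a median of -0.13, and under cyclic loess 7 and 2. Mean levels of this list were 8.08 and 8.12 in the DMSO arrays. At DMSO levels from 7.5 to 8.5 the median difference of all probe sets was -0.30 as well. The share of all probe sets lower without overlap rose with level, to 42.2% at DMSO levels from 8.5 to 9.5. Shares over all genes are therefore not a background matched in level for this list. Hmox1, the heme oxygenase gene, lay at 8.8 and 9.0 in the DMSO arrays and 7.7 and 7.9 in the TCDD arrays, low in both TCDD arrays, a difference of -1.10 (SE 0.131). It is also a marker of splenic macrophages and 1 of the 6 lower genes among the 12 macrophage and monocyte markers above, of which C1qb differed by 0.40 and Ccr2 by 0.05. The part of those cells was not tested. Taldo1, a transaldolase gene, lay at 10.9 and 10.5 in the DMSO arrays and 8.4 and 10.3 in the TCDD arrays (difference -1.35, SE 0.791), which was mostly replicate 1. The glutathione reductase gene Gsr differed by -0.75 (SE 0.255), with another probe set at 0.20, and the autophagy receptor gene Sqstm1 by -0.65 (SE 0.291). Keap1, at 6.6 and 6.4 in the DMSO arrays and 6.7 and 6.3 in the TCDD arrays, had a difference of 0.00, and Nqo1 stayed dim at 5.1 to 5.5. Without TCDD replicate 2 the list had 9 lower and 6 higher genes, beside 24.5% and 41.8% of all genes, and its median was -0.13. Without TCDD replicate 1 it had 15 and 1, beside 46.3% and 26.5%.

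**Figure D4:**
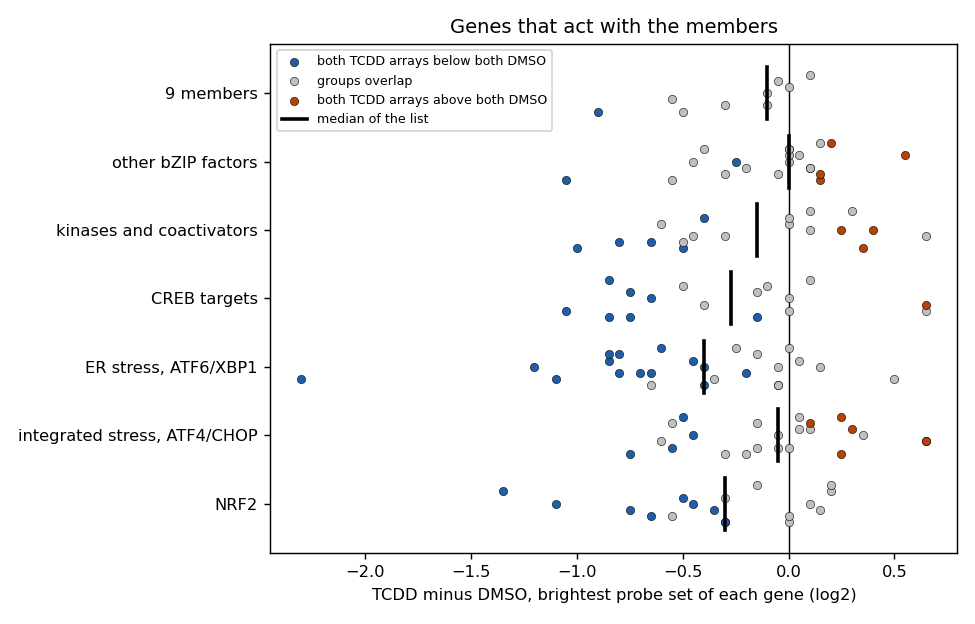
Difference between TCDD and DMSO on the brightest probe set of each gene (log2, horizontal axis) for the 9 members and 6 lists; blue points have both TCDD arrays below both DMSO arrays, red points both above, grey points overlap, and black bars are list medians. The ER list has 14 blue and 0 red points and a median of -0.40, while the integrated stress list has 4 blue and 6 red points and a median of -0.05.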

How the data were processed

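Total RNA of sorted splenic DC was hybridised to 4 Affymetrix mouse arrays. The deposited log2 values were made by the authors with RMA, per the submitters' processing notes; the sources used here do not give its software. The method corrects background and summarises the probes of a set. It usually includes quantile normalization, but the deposited arrays do not have identical distributions: their highest values ran from 14.1 to 14.5. Of 22690 probe sets the 64 controls were left out, and 22626 were tested. By the platform annotation 20380 have 1 symbol, 691 several and 1555 none. TCDD was compared with DMSO with limma 3.58.1 in R 4.3.3 (lmFit, eBayes, two-sided, Benjamini-Hochberg). The fit was tested on simulated data. In 741 probe sets neither group had any spread, because the values were rounded. The number of arrays limits the precision.

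Without overlap means that both TCDD values lie strictly on the same side of both DMSO values. The members and lists were chosen with earlier results of these data known. All member probe sets were named, and from each list up to 4 genes (more where tied) by size of difference without overlap. Hspa5, Trib3, Keap1, Hmox1, Atf3 and Crebbp were named besides. Nqo1, Nr4a3, Mapk11, Prkaca and Crtc3 were added. List symbols were matched through RefSeq names and synonyms. Promoter sequences are from RefSeq (GRCm38.p6), with 8 of 10 members matched; Atf6 and Crem were not matched. Protein sequences were not analysed here. A search for the ER stress response element and the antioxidant response element core TGACNNNGC was added later and found 0 and 2 of 8 promoters, against 0.113% and 10.2% of all windows. Alternatives were other normalizations, removal of dim probe sets, a replicate block, another prior, the median over the probe sets of a gene, a minimum difference of 0.5 and leaving out each array.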

Additional observations from a re-analysis of the deposited data

How the results depend on the processing

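Limma called 0 probe sets under every alternative run. At an unadjusted p under 0.05 the count of 2958 became 1960 under cyclic loess, 1577 with dim probe sets removed and 2047 with the replicate block, and leaving out 1 array gave 1521 to 5733. The sources used here do not say whether replicate numbers mark pairs; the deviations of the replicates correlated at -0.189 between the groups, and a crossed pairing, added after the data were seen, called 0 with 3081 at an unadjusted p under 0.05. The block changed no call. Probe sets at least 2-fold lower without overlap went from 531 to 291 under cyclic loess and 246 under quantile normalization, and without 1 array they ran from 652 to 942; those higher then ran from 82 to 326. Members lower without overlap went from 5 to 8 under cyclic loess, while the share of all probe sets lower went from 18.4% to 22.6%. Without 1 array they ran from 8 to 14, and members higher from 1 to 9. The shares of all probe sets then ran from 23.7% to 45.3% lower and from 24.8% to 40.8% higher. Over the 9 member genes read on their brightest probe set, the median difference of -0.10 became -0.20 with dim probe sets removed, which left 8 genes, and -0.25 with the median of the probe sets of each gene, and without 1 array ran from -0.40 to -0.10. Over all settings with a value, Atf2 1426583_at ranged from -2.60 to -1.60, Atf2 1452116_s_at from -1.30 to -0.50, Xbp1 1420886_a_at from -1.15 to -0.45 and Atf4 1439258_at from 0.70 to 1.90. Atf4 1448135_at went from -0.50 to 0.30 and Atf4 1438992_x_at from -0.55 to 0.95, each changing sign with 1 TCDD array left out; the former was also above 0 under cyclic loess (0.21) and quantile normalization (0.28). Values near the dim threshold limit what the probe sets of Crem, Creb1, Atf2 and Atf4 1439258_at can show.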
